A study of Mus musculus with 2 samples.

Results

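Kainate receptors are ionotropic glutamate receptors, and the 7 genes described here encode their subunits, Grik1 to Grik5, and their auxiliary proteins, Neto1 and Neto2. The genes were chosen by symbol, as 7 of the 32285 genes in the count tables of both mouse libraries, and each symbol matched 1 row. Levels and shares of nuclei were then compared between neurons and glia, between neurons and progenitors, and between the adult and the embryonic library. The study captured nuclei from a tissue section after tagging them with spatial barcodes (Slide-tags) and sequenced their RNA from the 3′ end. The adult hippocampus library came from a coronal section of a male C57BL/6J mouse at 56 days of age. The E14 brain library came from a sagittal brain section of a whole C57BL/6J embryo at embryonic day 14, and the sex is not given in the sources used here. Each group is 1 library, so no difference was tested, and intervals given here are exact 95% intervals that cover counting error only.

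Kainate receptors are tetramers. Grik1, Grik2 and Grik3 encode subunits (GluK1, GluK2 and GluK3) that form channels on their own, while Grik4 and Grik5 encode the high-affinity subunits (GluK4 and GluK5), which reach the surface as partners of the first kind. Neto1 and Neto2 are transmembrane proteins with CUB domains that slow the gating of the receptors and affect where they are placed. In the hippocampus the receptors are best known from the synapses of dentate granule cells onto CA3 pyramidal cells and from interneurons.

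The stretches before the start sites are shown for 3 subunit genes with contrasting levels below. Grik2 was found in most classes, Grik3 was nearly absent from CA1-like nuclei and Grik4 was concentrated in CA3-like nuclei. No result below rests on the stretches, and their relation to the levels was not tested. The stretches come from RefSeq (GRCm38.p6), read 5′ to 3′, and end before both the RefSeq and the GENCODE start. Capitals mark each CG, a pair of letters that reads the same on both strands.
Grik2, chr10:49788767-49789004, minus strand: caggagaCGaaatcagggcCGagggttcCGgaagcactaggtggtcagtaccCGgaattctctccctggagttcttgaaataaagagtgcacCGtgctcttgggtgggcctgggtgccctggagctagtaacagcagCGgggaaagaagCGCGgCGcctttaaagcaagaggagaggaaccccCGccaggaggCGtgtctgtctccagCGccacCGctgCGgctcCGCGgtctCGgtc
Grik3, chr4:125490446-125490695, plus strand: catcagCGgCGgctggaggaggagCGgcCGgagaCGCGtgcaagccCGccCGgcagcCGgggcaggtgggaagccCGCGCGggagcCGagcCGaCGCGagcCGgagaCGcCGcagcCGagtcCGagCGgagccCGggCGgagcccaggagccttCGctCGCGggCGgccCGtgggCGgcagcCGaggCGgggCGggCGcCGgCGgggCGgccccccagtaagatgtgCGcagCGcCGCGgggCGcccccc
Grik4, chr9:42944494-42944621, minus strand: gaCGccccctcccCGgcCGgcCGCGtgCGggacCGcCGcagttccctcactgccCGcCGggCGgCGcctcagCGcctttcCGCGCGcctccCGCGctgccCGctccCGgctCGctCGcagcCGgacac
The Grik2 stretch of 238 bases held 17 CG, a number reached by 21.3% of the 32851 promoter windows of the table over the same length. The Grik3 stretch of 250 bases held 42 CG, reached by 0.865% of windows, and the Grik4 stretch of 128 bases held 23, reached by 0.633%. These are counts of letters in 3 windows and say nothing of binding or methylation.

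In GENCODE vM21, on the build GRCm38 (mm10), Grik1 (ENSMUSG00000022935) lies at chr16:87895900-88290265 on the minus strand and Grik2 (ENSMUSG00000056073) at chr10:49094833-49788766 on the minus strand. Grik3 (ENSMUSG00000001985) lies at chr4:125490700-125714173 on the plus strand, Grik4 (ENSMUSG00000032017) at chr9:42518135-42944493 on the minus strand and Grik5 (ENSMUSG00000003378) at chr7:25009849-25072346 on the minus strand. Neto1 (ENSMUSG00000050321) lies at chr18:86394952-86506718 on the plus strand and Neto2 (ENSMUSG00000036902) at chr8:85636588-85700924 on the minus strand. All 7 are protein coding. Intronic reads were counted, and the genes span from 62.5 kb (Grik5) to 694 kb (Grik2), so levels are compared between genes only per 100 kb of span. Exonic and intronic UMIs were not separated, and exonic UMIs from the 3′ end need not grow with span. This scaling can thus raise short genes, and its orders are not rankings of expression. Reads from Gm26543 and Gm47018, which lie within Grik2 on its strand, cannot be told apart with certainty from intronic reads of Grik2, and AC113599.1 lies antisense to Neto1.

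The adult library held 1609 nuclei after filtering, with 15346746 UMIs (counted RNA molecules, with levels given as UMIs per 1000000 UMIs of a class, CPM) and a median of 6607 per nucleus, and the E14 library held 9036 nuclei with 58923882 UMIs and a median of 4204. Clusters were made without the 7 genes and their partner genes. A cluster was called "-like" its best-scoring class where at least 4 of that class's 8 fixed markers were detected. Some names are uncertain, as another list had as many or more markers detected. In the E14 library, Cajal-Retzius-like had 6 against 7 (Tbr1 and Lhx5 glutamatergic) and endothelial-like 6 against 7 (mural). Lhx8 ventral forebrain-like had 4 against 5 and ventral progenitor-like 4 against 4 (both forebrain GABAergic). Adult endothelial-like had 8 against 8 (mural). In the adult library 17.7% of nuclei were in clusters left unnamed and in the E14 library 49.3%, most of the latter in neuronal clusters given here by number and leading genes. The libraries shared 1 cell barcode. The adult neuronal classes summed 6843 to 21522 CPM over 8 adult neuron markers, against 434 to 1989 in the glial classes. In the E14 library the 8 embryonic neuron markers summed 5135 to 8211 CPM in neuronal classes and still 2484 to 4154 in the 4 non-neuronal classes (choroid plexus-like, endothelial-like, fibroblast or mesenchyme-like, microglia or macrophage-like), with 8 of 8 markers detected in each. An E14 level is therefore read beside the level in those 4 classes.

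Over the whole libraries, Grik1 had 79.2 CPM in the adult (1216 UMIs) and 312 in the E14 library (18369 UMIs). Grik2 had 1069 and 1887, and Grik3 63.1 and 201. Grik4 had 185 in the adult and 93.2 at E14. Grik5 was close to equal, with 121 (interval 116 to 127) and 123 (120 to 126). Neto1 had 168 in the adult and 51.85 at E14, and Neto2 40.9 and 212. Grik4 and Neto1 were thus the members with the higher value in the adult library, while Grik1, Grik2, Grik3 and Neto2 had the higher value at E14. Per 100 kb of span the adult order was Grik5 (194 CPM per 100 kb), Grik2 (154), Neto1 (150.0), Neto2 (63.5), Grik4 (43.4), Grik3 (28.2) and Grik1 (20.1). At E14 the per-length order began with Neto2 (329) and Grik2 (272) and ended with Neto1 (46.4) and Grik4 (21.9). The genes placed first, Grik5 (62.5 kb) in the adult and Neto2 (64.3 kb) at E14, were the shortest of the members. The part of span in these orders was not tested.

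In the adult hippocampus, Grik1, whose subunit is associated with interneurons, was highest in the 43 inhibitory-like nuclei, at 871 CPM (796 to 951). The oligodendrocyte precursor-like nuclei followed at 339 (257 to 440) and the thalamic-like nuclei at 270 (244 to 297), and these 2 classes did not differ beyond counting error. The 3 hippocampal excitatory classes were near the bottom, with 10.4 CPM in dentate granule-like, 9.75 in CA3-like and 9.05 in CA1-like nuclei, and their intervals overlapped. The inhibitory-like level was 96.2 times that of CA1-like nuclei (67.3 to 142). Grik1 was uneven among the inhibitory-like nuclei, from 0 through a median of 4.47 to 54.0 UMIs per 10000 UMIs of a nucleus, and 35 of 43 nuclei had at least 1 UMI. Microglia-like nuclei had 5 UMIs of Grik1 and endothelial-like nuclei 5.

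**Figure D1:**
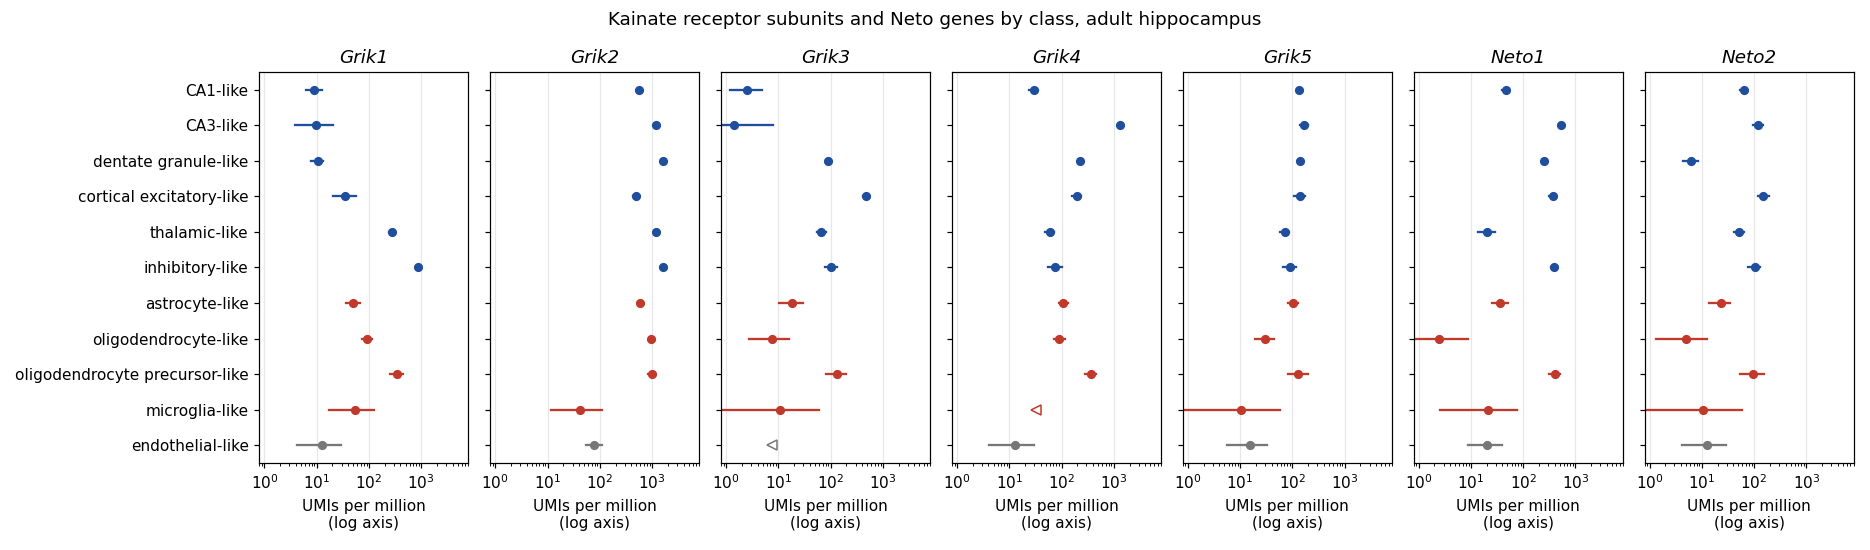
Levels of the 7 genes by class in the adult hippocampus, as CPM on a log axis, with exact Poisson intervals as bars (neuronal classes blue, glial red, endothelial-like grey). Open triangles mark classes with 0 UMIs at the level that 3 counts would give; Grik4 stands out in CA3-like nuclei at 1335, Grik1 in inhibitory-like nuclei at 871 and Grik3 in cortical excitatory-like nuclei at 473.

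Grik2, whose subunit takes part in many native kainate receptors, was highest in inhibitory-like (1596 CPM) and dentate granule-like nuclei (1584), which did not differ beyond counting error, and CA3-like (1167) and thalamic-like nuclei (1166) formed the next pair. Among excitatory hippocampal classes, dentate granule-like nuclei exceeded CA1-like nuclei (555) by 2.85 times (2.72 to 3.00) and CA3-like nuclei exceeded them by 2.10 times (1.94 to 2.28). Grik2 was also high in glia. Oligodendrocyte precursor-like (994) and oligodendrocyte-like nuclei (968) had overlapping intervals, and the oligodendrocyte-like level was 1.74 times that of CA1-like nuclei (1.603 to 1.895) and 12.3 times that of endothelial-like nuclei (8.59 to 18.2). In the oligodendrocyte-like class the adult neuron markers summed to 434 CPM and the embryonic neuron markers to 2263, against 562 and 320 in the endothelial-like class, where Grik2 was at 78.8. The part of neuronal RNA in the glial Grik2 was not tested. Within the astrocyte-like class the clusters differed, with 637 (582 to 696) in 102 nuclei and 220 (141 to 327) in 21 nuclei.

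Grik3, whose subunit has a low affinity for glutamate, was highest in the 29 cortical excitatory-like nuclei at 473 CPM (414 to 539), and 27 of these nuclei had a UMI. It had 131 in oligodendrocyte precursor-like, 102 in inhibitory-like and 88.8 in dentate granule-like nuclei, neighbours in order that did not differ beyond counting error. In CA1-like nuclei only 9 UMIs were counted among 3534562, or 2.55 CPM (1.16 to 4.83), and in CA3-like nuclei 1. The dentate granule-like level was 34.9 times the CA1-like level (18.2 to 76.7). Both dentate granule-like clusters had it, at 102.5 CPM (91.55 to 114) and 72.9 (63.1 to 83.9).

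Of the high-affinity subunits, Grik4 was concentrated in CA3-like nuclei and Grik5 was not. The 34 CA3-like nuclei had 1335 CPM (1252 to 1422), 44.9 times the CA1-like level of 29.7 (ratio interval 36.7 to 55.5) and 5.93 times the dentate granule-like level of 225 (5.45 to 6.45). Over the CA3-like nuclei it ran from 0 through a median of 13.35 to 39.8 UMIs per 10000, and 32 of the 34 had a UMI. In the 183 CA1-like nuclei the median was 0 and the highest 9.67. The second level was that of oligodendrocyte precursor-like nuclei, at 363 (278 to 466), and no UMI was counted in microglia-like nuclei, where 3 counts would give 31.8 CPM.

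Grik5 was spread far more evenly. CA3-like nuclei had 168 CPM (140 to 201), dentate granule-like 143, cortical excitatory-like 140 (108 to 177), CA1-like 136 and oligodendrocyte precursor-like nuclei 131, and no neighbours in that order differed beyond counting error. Thalamic-like nuclei had 71.3, below the dentate granule-like level by 2.00 times (1.64 to 2.48), and oligodendrocyte-like nuclei 29.5 (18.9 to 43.9). Per 100 kb of span, Grik4 had 313 CPM and Grik5 269.5 in CA3-like nuclei, while in CA1-like nuclei Grik4 had 6.97 and Grik5 218. Over all adult neurons Grik5 stood at 210 and Grik4 at 48.3 CPM per 100 kb.

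The auxiliary genes differed from each other among hippocampal neurons. Neto1 was highest in CA3-like nuclei at 539 CPM (486 to 595), 11.6 times the CA1-like level of 46.4 (9.65 to 14.02), and dentate granule-like nuclei had 249. Neto2 had 121 in CA3-like and 62.8 in CA1-like nuclei, but 6.22 (4.36 to 8.61) in dentate granule-like nuclei, so that the CA1-like level was 10.1 times the dentate granule-like one (7.07 to 14.8). Per 100 kb of span, dentate granule-like nuclei had 222.5 CPM of Neto1 and 9.67 of Neto2, and CA1-like nuclei had 41.5 and 97.6. Thalamic-like nuclei had 20.2 for Neto1 and 52.45 for Neto2. The 2 CA1-like clusters were unlike for Neto1, with 101 (83.1 to 122) in 48 nuclei and 22.7 (17.1 to 29.5) in 135.

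The classes of the oligodendrocyte lineage differed in every member but Grik2. From oligodendrocyte precursor-like to oligodendrocyte-like nuclei, Grik2 differed by 1.03 times (0.863 to 1.21), which is within counting error. Grik1 was 3.68 times higher in the precursor-like nuclei (2.56 to 5.26), Grik4 3.99 times (2.79 to 5.67) and Grik5 4.43 times (2.37 to 8.26). Grik3 was 17.7 times higher (6.97 to 53.5) from 22 and 6 UMIs. Neto2 had 16 and 4 UMIs and a ratio of 19.4 (6.24 to 79.5), and Neto1 had 67 UMIs in 28 precursor-like nuclei and 2 in 235 oligodendrocyte-like nuclei, a ratio of 162 (43.1 to 1365). The precursor-like class had the adult neuron markers at 1934 CPM against 434, but the embryonic neuron markers at 1458 against 2263. The part of neuronal RNA in these levels was not tested.

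Shares of nuclei with a UMI depend on depth, and medians ran from 2098.5 UMIs in microglia-like to 18861 in CA3-like nuclei. Before thinning, Grik2 was detected in 98.4% of dentate granule-like, 95.1% of CA1-like, 72.8% of oligodendrocyte-like and 77.2% of astrocyte-like nuclei. It was detected in 11.9% of endothelial-like and 5.26% of microglia-like nuclei. After each nucleus was thinned to 1000 UMIs, Grik2 remained in 74.5% (70.1 to 78.6) of dentate granule-like, 49.3% (42.6 to 56.1) of oligodendrocyte-like and 41.0% (33.8 to 48.5) of CA1-like nuclei, against 3.57% (0.435 to 12.3) of endothelial-like nuclei. Thinned Grik4 was in 64.7% (46.5 to 80.2) of CA3-like and 2.19% (0.599 to 5.50) of CA1-like nuclei. Thinned Grik1 was in 39.5% (25.0 to 55.6) of inhibitory-like and 2.19% of CA1-like nuclei. The order of these shares followed that of the levels. Thinning left out 30 of the 124 thalamic-like nuclei, 10 of the 235 oligodendrocyte-like nuclei and at most 3 in any other named class.

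**Figure D2:**
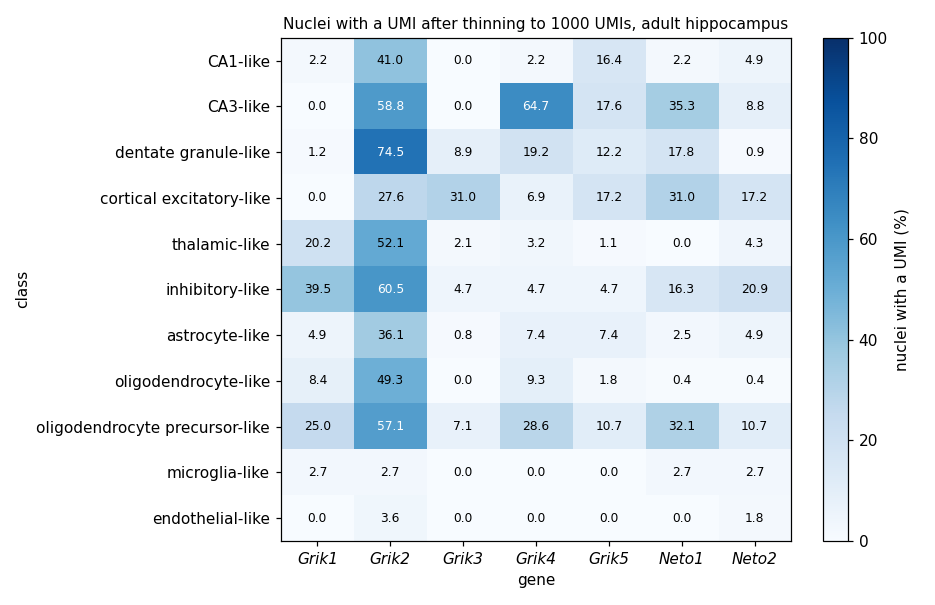
Percent of adult nuclei with at least 1 UMI of each gene after thinning to 1000 UMIs, by class, with darker blue for higher shares. Grik2 has 74.5% in dentate granule-like nuclei and 3.6% in endothelial-like nuclei, and Grik4 has 64.7% in CA3-like nuclei.

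Members of different roles were also counted within single nuclei. In all 34 CA3-like nuclei there was a UMI of at least 1 of Grik1, Grik2 and Grik3, at least 1 of Grik4 and Grik5 and at least 1 Neto gene. The same was true of 96.6% of cortical excitatory-like, 79.0% of dentate granule-like, 71.4% of oligodendrocyte precursor-like, 65.0% of CA1-like and 55.8% of inhibitory-like nuclei. It was true of 27.4% of thalamic-like, 19.5% of astrocyte-like, 1.69% of endothelial-like, 0.426% of oligodendrocyte-like and 0% of microglia-like nuclei. These shares were not thinned, depth differed between the classes and its part was not tested. Of the thalamic-like nuclei, 61 were in a cluster with a median of 1045 UMIs and 63 in a cluster with a median of 18954.

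With the 6 neuronal classes (842 nuclei) set against the 4 glial classes (424 nuclei) of the adult library, 3 of 7 members were at least 2 times higher in neurons with an interval that excluded 1, and none was lower. By the same rule 16.8% of 13572 genes were higher in neurons and 19.3% were lower. The median log2 ratio over the members was 0.90, beside -0.15 over all genes tested. The 3 were Neto1, with 192.5 against 52.8 CPM (ratio 3.65, 2.99 to 4.49), Grik3, with 72.2 against 23.1 (3.13, 2.32 to 4.32), and Neto2, with 44.0 against 21.0 (2.09, 1.52 to 2.95). Grik5 (1.87), Grik4 (1.75) and Grik2 (1.57) were higher in neurons with intervals above 1 but by less than 2 times, and Grik1 was not distinguishable, with 80.5 against 92.3 (0.872, 0.744 to 1.03). Without the 28 oligodendrocyte precursor-like nuclei, 5 members were past 2-fold, beside 17.8% of all genes, and the ratio of Neto1 was 9.53 and that of Grik3 5.60.

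**Figure D3:**
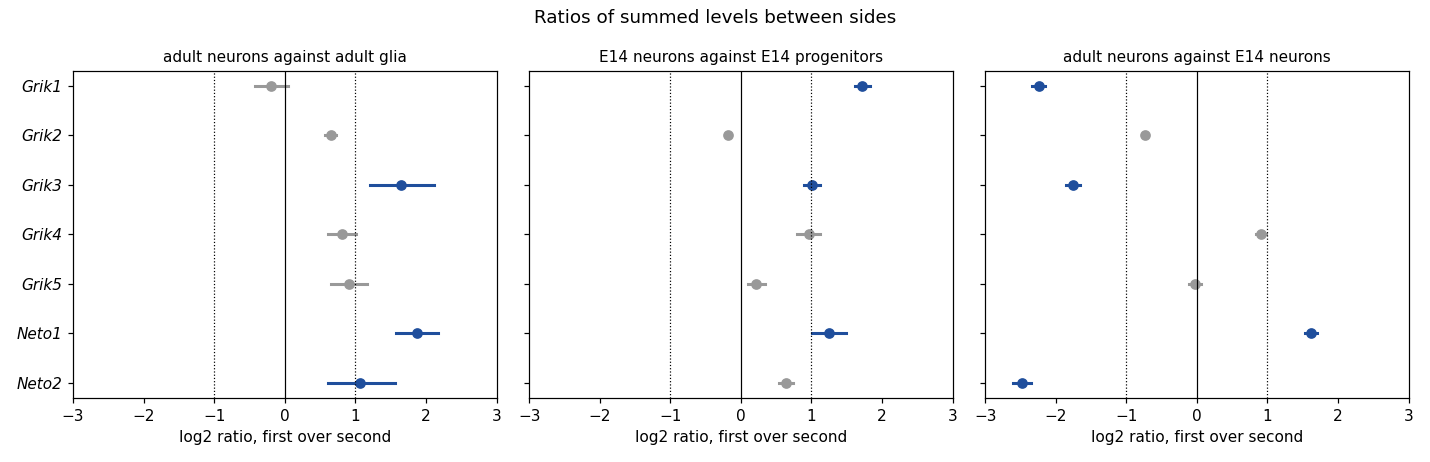
Log2 ratios of summed levels for adult neurons over adult glia, E14 neurons over E14 progenitors and adult over E14 neurons, with exact conditional intervals as bars. Blue marks members past 2-fold (dotted lines), which are 3, 3 and 4 of the 7, and grey the others.

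The 16 partner genes were listed with earlier results of these data known, for their known relation to kainate receptors. They encode RNA editing enzymes, mossy fibre ligands, scaffolds, trafficking and adhesion proteins. Of them, 9 were at least 2 times higher in adult neurons than in glia, 1 was lower and 6 were neither. Over all genes tested, 16.8% were higher and 19.3% lower. Nrxn3, a presynaptic neurexin that binds C1q-like proteins, had 3748 against 377 CPM (9.95 times, 9.25 to 10.7). Grip1, a scaffold with PDZ domains, had 442 against 80.0 (5.53 times), and it stood at 4704 in inhibitory-like nuclei. C1ql3, a secreted C1q-like protein, had 408 against 93.3 (4.37 times), with 789 in dentate granule-like and 8.35 in CA3-like nuclei, and C1ql2 had 115 and 1.39 in the same classes. Adarb1, an enzyme that edits glutamate receptor transcripts, was at 719 in thalamic-like nuclei and 3.35 times higher in neurons than in glia. Dlg1, a scaffold of the PSD-95 family, was the gene that was lower, with 131 against 378 (0.346, 0.317 to 0.378), and Pick1, Cul3 and Ctnnb1 had ratios of 0.893, 0.940 and 0.849.

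In the E14 library, the summed Grik2 level was 950 CPM or more in every class. Its highest levels were 4827 CPM (4719 to 4937) in cluster 13, a neuronal cluster of 285 nuclei led by Fign, Kcnmb2 and Sema3e, and 4578 (4440 to 4719) in cluster 16, a neuronal cluster of 169 nuclei with Gfra2 among its leading genes. The dorsal radial glia-like nuclei came next at 2973 (2912 to 3034), above 11 of the 13 neuronal classes. The 4 non-neuronal classes had 1037 to 1211. Medians per nucleus were 0 UMIs in fibroblast or mesenchyme-like and microglia or macrophage-like, 2 in endothelial-like and 8.5 in choroid plexus-like nuclei. The sums of the first 2 of these classes thus came from a part of their nuclei. The dorsal radial glia-like level was 2.45 times that of the highest non-neuronal class (2.35 to 2.56), and those of clusters 13 and 16 were 3.98 and 3.78 times, while the other 11 neuronal classes were less than 2 times above it or, in cluster 14, below it (0.784). After thinning to 1000 UMIs, Grik2 was in 83.4% of dorsal radial glia-like nuclei (79.6 to 86.7), and in 26.6% to 47.5% of nuclei of the non-neuronal classes.

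**Figure D4:**
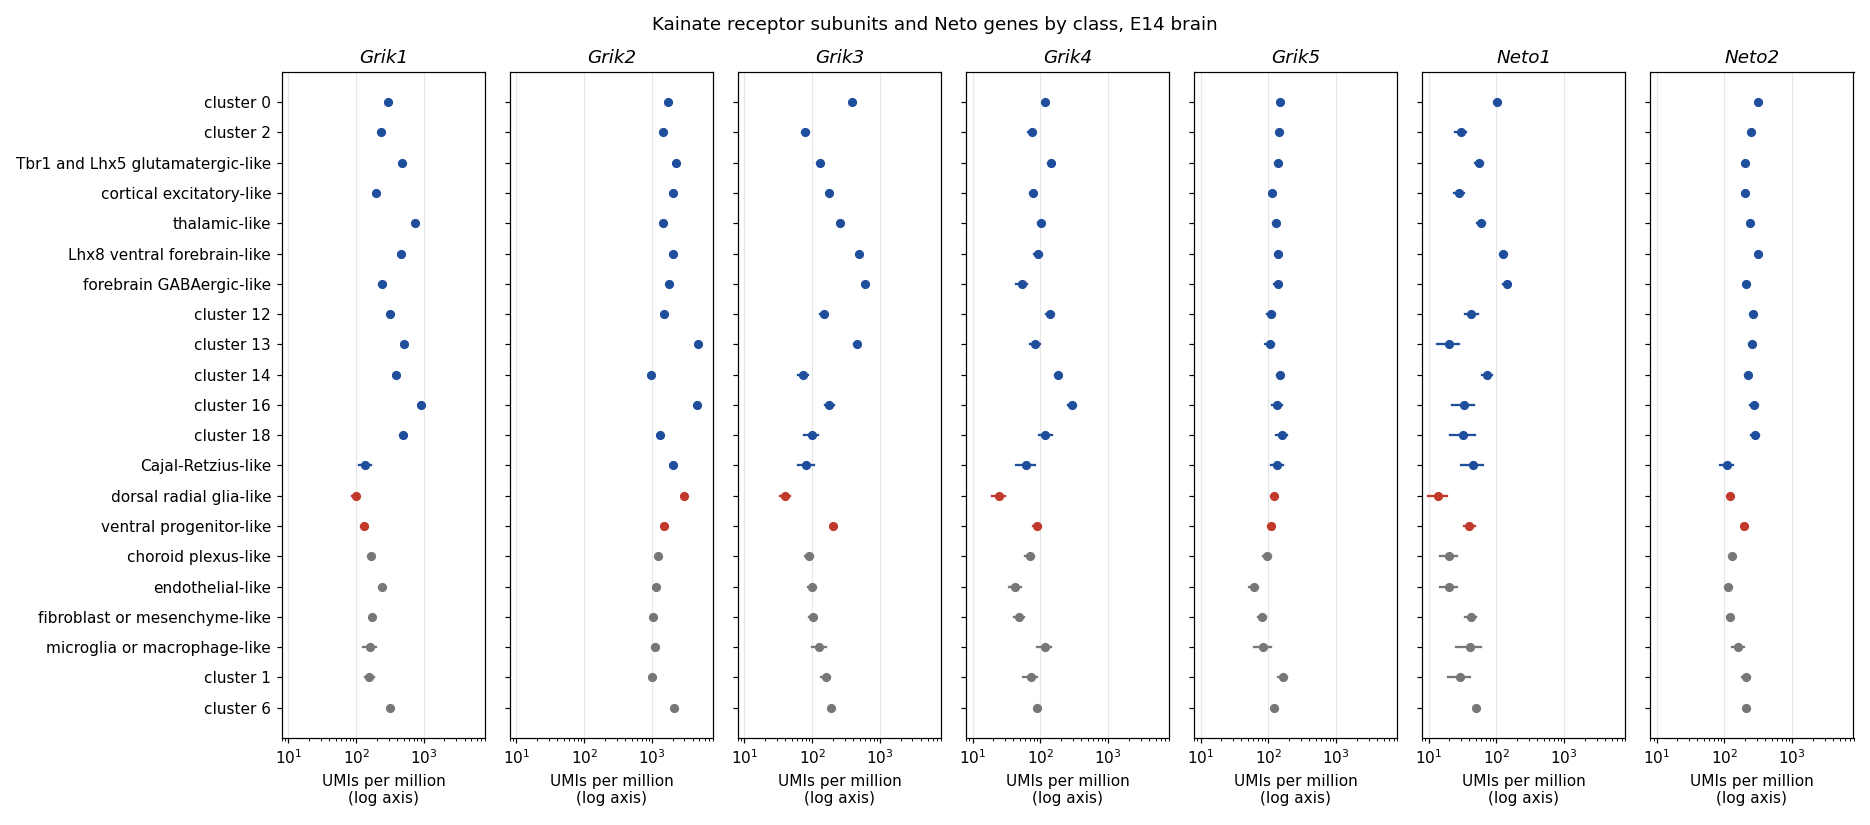
Levels of the 7 genes by class in the E14 brain, as CPM on a log axis with exact Poisson intervals (neuronal classes blue, progenitors red, non-neuronal classes and clusters of mixed markers grey). Grik2 reaches 4827 in cluster 13 and 2973 in dorsal radial glia-like nuclei. In the dorsal progenitors, Grik1, Grik3 and Grik4 all lie below the grey non-neuronal classes. In the ventral progenitors only Grik1 does, at 132, with an interval that overlaps that of microglia or macrophage-like nuclei (157). Neto1 in the dorsal class is within counting error of choroid plexus-like and endothelial-like nuclei.

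Grik1 was highest in cluster 16 at 914 CPM (853 to 978) and in the thalamic-like nuclei at 729 (700 to 759), 3.86 and 3.08 times the highest non-neuronal class (endothelial-like, 237). Grik3 was highest in forebrain GABAergic-like (602), Lhx8 ventral forebrain-like (491) and cluster 13 nuclei (449), against 127 in microglia or macrophage-like nuclei. The forebrain GABAergic-like cluster had 8 of 8 markers of its list, but its 10 leading genes held 1 of them (Dlx6os1) and 3 of the migrating interneuron list (Lhx6, Nxph1 and Erbb4), so the name is uncertain. In the Cajal-Retzius-like class Grik1 and Grik3 were low, at 135 and 80.6. Grik4 was past 2 times the highest non-neuronal class (115) only in cluster 16, at 294 (260 to 331), among the 13 neuronal classes. Grik5 ran from 104 to 157 over the neuronal classes, at most 1.63 times the choroid plexus-like level of 96.4, and so had the narrowest range of the 7.

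The auxiliary genes were both high in Lhx8 ventral forebrain-like nuclei. Neto1 was highest in forebrain GABAergic-like (141 CPM, 125 to 159) and Lhx8 ventral forebrain-like nuclei (127, 114 to 142), and in cortical excitatory-like nuclei it was at 28.4, below the fibroblast or mesenchyme-like 42.2. Neto2 was widespread, with 314 in Lhx8 ventral forebrain-like nuclei and in cluster 0 (led by Adarb2 and Clstn2), 108 in Cajal-Retzius-like nuclei and 159 in microglia or macrophage-like nuclei. In 12 of 13 neuronal classes Neto2 exceeded the highest non-neuronal class, in none of them by 2 times.

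Between neurons (5773 nuclei) and progenitors (922 nuclei) of the E14 library, 3 of 7 members were at least 2 times higher in neurons and none was lower, where 13.8% of 16039 genes were higher and 14.9% lower. Grik1 had 380 against 115 CPM (3.30 times, 3.06 to 3.57), Neto1 63.0 against 26.6 (2.37, 2.02 to 2.80) and Grik3 244 against 121 (2.01, 1.86 to 2.17). Grik4 was just under the limit at 1.945 times (1.74 to 2.18), Neto2 at 1.56, Grik5 at 1.16 and Grik2 at 0.879 (0.863 to 0.895), a direction that rested on the dorsal class (0.661 against dorsal radial glia-like and 1.32 against ventral progenitor-like nuclei alone). The median log2 ratio was 0.96 for the members and -0.17 for all genes. The progenitors were not alike. Grik3 had 39.9 CPM in dorsal radial glia-like and 205 in ventral progenitor-like nuclei, 5.14 times more (4.23 to 6.29), Grik4 differed by 3.69 times (2.85 to 4.83) and Neto1 by 2.93 times (2.04 to 4.26), these 3 being higher in the ventral class. Grik2 went the other way, with 1485 in the ventral and 2973 in the dorsal class (ratio 0.4996, 0.482 to 0.518). Against the dorsal class alone 5 members were past 2-fold in neurons, where 16.5% of all genes were, and against the ventral class 1, where 11.02% were. Embryonic neuron markers summed to 1587 in the dorsal and 2878 in the ventral class, and their part in these differences was not tested. Of 15 partner genes tested, 3 were higher (Dlg2, Snap25, C1ql3), 1 was lower (Dlg1) and 11 were neither.

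Between adult and E14 neurons, 1 of 7 members was at least 2 times higher in the adult and 3 were lower, where 16.5% of 16516 genes were higher and 21.5% lower. Age, tissue, library and Cell Ranger version (6.1.2 and 7.0.1 in the file headers) cannot be told apart in this comparison. Neto1 was higher in adult neurons, with 192.5 against 63.0 CPM (3.06 times, 2.88 to 3.24). Neto2 had 44.0 against 245 and was 5.57 times higher at E14 (5.11 to 6.08). Grik1 had 80.5 against 380 (4.73 times higher at E14, 4.43 to 5.04) and Grik3 72.2 against 244 (3.38 times, 3.15 to 3.62). Grik4 was 1.87 times higher in the adult (1.78 to 1.97), Grik2 1.67 times higher at E14 (1.64 to 1.70) and Grik5 did not differ beyond counting error (0.982, 0.927 to 1.04). The neurons of the libraries come from different regions, so the classes that both libraries held were compared next.

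**Figure D5:**
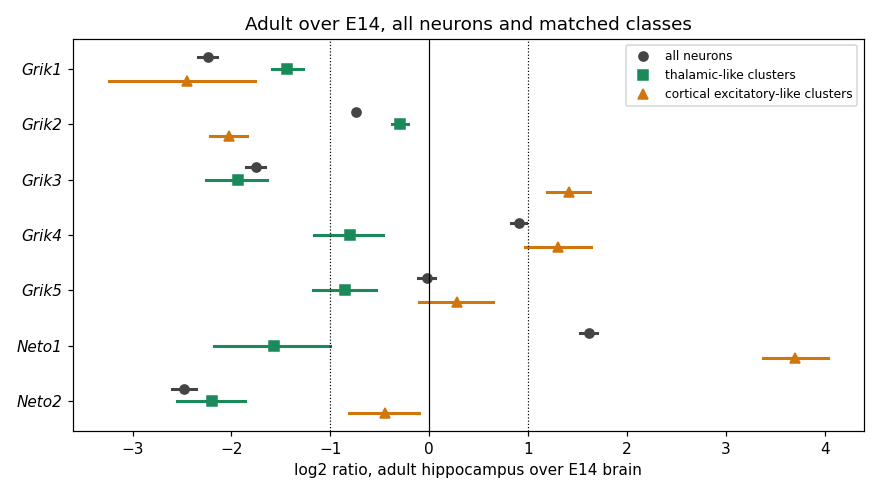
Log2 ratio of adult over E14 levels for all neurons (dark circles), thalamic-like clusters (green squares) and cortical excitatory-like clusters (orange triangles), with exact conditional intervals as bars. Grik3, Grik4 and Neto1 lie to the left of 0 in the thalamic-like and to the right in the cortical excitatory-like comparison, Neto1 at ratios of 0.337 and 12.99.

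In the thalamic-like class (124 adult and 549 E14 nuclei) every member was lower in the adult, from Neto2, with 52.45 against 241 CPM (ratio 0.218, 0.170 to 0.275), to Grik2, with 1166 against 1427 (0.817, 0.773 to 0.864). Grik1 was at 270 against 729 (0.370). Of the 124 adult nuclei, 61 were in a cluster with a median of 1045 UMIs and 0.660% of UMIs from Malat1. In the cortical excitatory-like class (29 adult and 623 E14 nuclei) Neto1 was 12.99 times higher in the adult, with 369 against 28.4 (10.4 to 16.3), Grik3 was 2.66 times higher (2.29 to 3.08) and Grik4 2.47 times (1.95 to 3.11). Grik2, with 498 against 2033, was 4.08 times higher at E14 in that class, and Grik1, with 35.4 against 194, 5.47 times. Grik5 did not differ beyond counting error there (1.22, 0.930 to 1.57). Grik1, Grik2 and Neto2 were lower in the adult in both classes, and Grik3, Grik4 and Neto1 had opposite directions. Adult inhibitory-like and E14 forebrain GABAergic-like nuclei were not taken as matched, for the leading genes named above, but their Grik1 levels were 871 (43 nuclei) and 240 CPM (457 nuclei), 3.625 times higher in the adult and thus the reverse of the ratio over all neurons.

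Non-neuronal classes also differed between the libraries. Grik2 had 1141 CPM in E14 endothelial-like and 78.8 in adult endothelial-like nuclei, and 1089 against 42.45 in microglia or macrophage-like and microglia-like nuclei. The embryonic neuron markers moved with it, at 2625 against 320 and 4154 against 435. The part of free RNA in the E14 levels was not tested. Neto1 had 20.2 and 20.3 in the endothelial-like classes.

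Of the 16 partner genes, 6 were at least 2 times higher in adult than in E14 neurons, 3 were lower and 7 were neither. Over all genes tested, 16.5% were higher and 21.5% lower. C1ql2 had 678 UMIs in adult and 0 in E14 neurons, and C1ql3 had 408 against 13.2 CPM (30.9 times, 28.0 to 34.1). Adarb1 was 4.99 times higher (4.66 to 5.35) and Kif17, a kinesin of dendrites, 6.39 times. Nrxn3 (2.13 times), Grip1 (2.67 times) and the adhesion gene Cdh2 (2.79 times) were higher at E14. The median log2 ratio over the partners was 0.31, over the members -0.74 and over all genes -0.14.

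The genes with patterns most like each member were found by Pearson's r of log2 (CPM + 1) over the 23 named classes of both libraries, among 9402 genes with at least 200 UMIs in each. The classes of a library share depth and free RNA, so these are descriptions. Grik1 was most like Kcnmb2 (r = 0.888), Grik3 most like Gm27008 (0.872) and Glra2 (0.870), and Grik4 most like Ttc39c (0.865). Grik2 followed Gm42439 (0.940), E330018M18Rik (0.934) and its partner Pick1 (0.931). Grik5 followed Erc2 (0.934), an active zone gene. Neto2 followed Runx1t1 (0.915), Dcx (0.903) and Dpysl3 (0.897), the last 2 genes of young neurons, and Neto1 had the weakest likeness, to 4732463B04Rik (0.824).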

How the data were processed

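UMI counts per gene and nucleus barcode were analysed for 2 samples, 1 per group. The authors aligned 10x 3′ reads to mm10, introns included. The deposited counts were taken as raw Cell Ranger counts. Versions 6.1.2 (adult) and 7.0.1 (E14) stand in the headers. CellBender is named for the embryo, whose deposited counts were taken as not yet corrected by it. No column belonged to other samples. Spatial positions were not analysed here.

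A minimum of 500 UMIs and a mitochondrial share below 5% left 1609 of 1661 adult and 9036 of 9037 E14 nuclei. Seurat 5.3.0 in R 4.3.3 clustered each library with settings of the study (counts scaled to 10000, 2000 variable genes, 30 principal components, resolution 0.8). Members and partners were left out of the variable genes. The study clustered E14 nuclei that had a spatial position, while all nuclei past the filters were clustered here. A marker counted as detected with a UMI in at least 10% of nuclei and a mean relative level at least 2 times that of the others. Each cluster was scored by detected markers plus markers among its 10 leading genes, ranked by fold with 20 UMIs per 1000000 added, among genes in at least 25% of its nuclei. Clusters with a median under the library median divided by 3 stayed unnamed where no own marker, a mitochondrial gene, or as many markers of another list led them. E14 clusters counted as neuronal where embryonic neuron markers were at least 20 times the progenitor markers, and as progenitors where named so and at most 2 times. Scoring and limits were chosen once clusters were known. Members, partners and markers were chosen with earlier results of these data known. Partners were 16 of 17 listed genes.

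Scrublet in scanpy 1.11.5 marked 6 adult (0.373%) and 4 E14 nuclei (0.0443%) by its automatic threshold, judged not to have worked. Marked nuclei were kept, and removing the 21 and 653 highest scores was an alternative. Levels are UMIs summed over a class per 1000000, with exact Poisson intervals. Shares have exact binomial (Clopper-Pearson) intervals, and ratios exact conditional binomial ones. A member was past 2-fold with a ratio of at least 2 or its inverse and a 95% interval without 1, among genes with at least 50 UMIs in both sides together. A count of 0 was taken to allow 3. Genes named are the members, the partners and, for each member, the 3 genes of most similar pattern. The ratio and its interval were tested on simulated data. Naming followed GENCODE vM21.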

Additional observations from a re-analysis of the deposited data

Results flagged for a closer look

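The ratio of adult over E14 levels had opposite directions in the thalamic-like and the cortical excitatory-like class for 3 members, which is why they are listed here. For Neto1 it was 0.337 in thalamic-like and 12.99 in cortical excitatory-like nuclei. For Grik3 it was 0.261 and 2.66, and for Grik4 0.572 and 2.47. With 1 library per age the difference between the classes was not tested. The adult cortical excitatory-like class rests on 29 nuclei.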

How the results depend on the processing

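No paired analysis was possible because each group has 1 library. In the adult comparison of neurons with glia, 3 members were past 2-fold in neurons. This became 5 without oligodendrocyte precursor-like nuclei, where 17.8% of all genes were higher. Without the inhibitory-like cluster 0 lower became 1 (Grik1), where 19.6% of all genes were lower. In the E14 comparison with progenitors 3 became 1 at 3-fold, where 7.66% of all genes were higher. The count became 5 against dorsal radial glia-like nuclei only (16.5%) and 1 against ventral progenitor-like nuclei only (11.02%). Between adult and E14 neurons the 1 higher member became 2 with classes weighted equally, a setting without a share over all genes. The count also became 2 with cortical and hippocampal excitatory (19.2% of all genes higher), inhibitory and GABAergic (14.7%) or named neuronal clusters only (17.1%). It became 3 with cortical excitatory clusters only (16.7%), and 0 with thalamic clusters with (16.1%) or without the low-UMI one (14.1%). Directions turned there for Neto1 (log2 -1.57 with thalamic clusters, -1.49 without the low-UMI one), Grik4 (from 0.91 to -0.81 and -0.69 in the same settings), Grik1 (1.86 with inhibitory and GABAergic clusters) and Grik3 (1.41 with cortical excitatory clusters). Among these main counts 12 moved and 86 stayed within 1.5 times. Among the other values compared over the settings, 266 stayed the same, 149 moved and 4 reversed. The log2 ratio of Grik1 between adult neurons and glia ran from -1.10 to 0.60. That of Grik5 between adult and E14 neurons ran from -0.87 to 0.31. Settings on subsets of clusters hold fewer nuclei by construction, and for other changes the cause was not tested. Filters on UMIs and mitochondrial share, finer clusters, more variable genes and removal of likely doublets left the CA3-like level of Grik4 between 1283 and 1335 CPM. Naming each nucleus from its own marker UMIs left 1 CA3-like nucleus, without Grik4, and 38 E14 progenitors, without Neto1, so no ratio is given for it. The settings named dorsal or ventral only, without dentate granule-like, inhibitory-like or oligodendrocyte-like clusters, named clusters only, cortical excitatory only and thalamic without the low-UMI cluster were chosen after seeing the data. Depth limits classes of 28 to 43 nuclei and all shares.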

Other observations

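Some clusters that the markers left unnamed (adult 3 and 6, E14 1 and 6) were counted neither as neurons nor as glia or progenitors. In the adult library, cluster 3 (202 nuclei, led by Map1a, Ddn and Hpca, a median of 827 UMIs, with 0.639% of UMIs from the nuclear RNA Malat1, against 6.39% in the larger CA1-like cluster) had Grik5 at 165 CPM (119 to 223) and Grik2 at 184, where the 6 adult neuronal classes had Grik5 at 71.3 to 168 and Grik2 at 498 to 1596. Cluster 6 (82 nuclei, led by Aldoc, Gstm1 and Clu, 0.533% Malat1) had Grik5 at 132 (83.6 to 198) and Grik2 at 97.4, where astrocyte-like nuclei had 103 and 585. The thalamic-like cluster of few UMIs (61 nuclei, 0.660% Malat1) likewise had Grik2 at 287 (202 to 396) beside 1249 in the other thalamic-like cluster, and Grik5 at 77.6 beside 70.7. In these 3 clusters of low Malat1, Grik2 was thus below its level in the classes set beside them, while the interval of Grik5 overlapped theirs. The other members did not share 1 direction: in cluster 3 Grik1 was at 51.0 (27.2 to 87.2), above the 9.05 to 10.4 of CA1-like, CA3-like and dentate granule-like nuclei, and Grik4 was at 27.5 beside 29.7 in CA1-like nuclei. The part of depth and of free RNA in this was not tested. At E14, cluster 1 (1044 nuclei, a median of 736.5 UMIs, led by haemoglobin genes and Ttr) had Grik5 at 163 (139 to 189), beside 104 to 157 in the neuronal classes, and Grik2 at 1008. Cluster 6 of that library (496 nuclei, a median of 13545.5 UMIs) shared leading genes with the dorsal radial glia-like cluster (Gm29260, Creb5, Etl4) and had Grik2 at 2136 and Grik1 at 318.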
